A study of Mus musculus with 6 samples.

Results

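Cytoplasmic ribosomal protein genes were compared between peritoneal cavity (PC) B1a cells of p40-/-CD25-/- mice (knockout) and p40-/-CD25+/- mice (control). CD25 is the IL-2 receptor α chain, encoded by Il2ra, and p40 is the subunit shared by IL-12 and IL-23, encoded by Il12b. All animals lacked p40, so the groups differed by design in the second CD25 allele, and as both alleles are carried in the germline, CD25 was missing from T cells and all other cells of the knockout mice as well as from their B cells. Both groups were 7-week-old females on the C57Bl/6 background, and B1a cells were sorted by flow cytometry as B cells positive for CD11b and CD5. Total RNA was hybridized to 1-colour Agilent mouse arrays, 3 arrays per genotype, with cells of several mice pooled in each sample. Ribosomal protein genes were chosen by name alone (Rpl or Rps with a digit, Rplp with a digit, and Rpsa), leaving out S6 kinases and pseudogenes. The rule found 85 genes of 36163 gene names on the array, 33 with Rps and 52 with Rpl names, read by 185 probes, and the brightest probe stood for each gene. A total of 83 of them could be tested among 18256 genes. The exceptions, Rpl3l and Rpl10l, copies known from muscle and testis, were not well above background on any array.

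The cytoplasmic ribosome is built from ribosomal RNA and a set of ribosomal proteins, those named Rps in the small (40S) subunit and those named Rpl in the large (60S) subunit. Their transcripts are among the most abundant of any dividing or secreting cell and share a pyrimidine-rich 5′ end (the 5′TOP motif), through which mTOR and LARP1 control their translation, while Myc raises transcription of many of them. B1a cells are self-renewing B cells of body cavities that secrete natural IgM, and protein synthesis limits both growth and antibody output of B cells.

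The log2 signals below are relative to the 75th percentile of each array, and a change is knockout minus control on that scale. The 75th percentile itself lay at 131, 66.5 and 162 intensity units on knockout arrays and at 264, 252 and 272 on control arrays, so knockout arrays were the dimmer ones, and between 39.7% and 45.9% of knockout spots were well above background against 47.2% to 50.6% of control spots. Il2ra, the targeted gene, was at 1.62, 1.13 and 1.35 on control and at -0.31, -0.59 and 0.86 on knockout arrays (log2 change -1.38, SE 0.37, limma adjusted p = 0.122, n = 3 per group), and Il12b did not separate (-0.02). Signals of both genes were well above background on all 6 arrays, and whether their probes lie in the deleted parts was not determined. The 7 B-cell and 7 B1a markers were well above background on all arrays. Summed B-cell markers lay at 10.18 to 10.23 on control and 10.23 to 10.47 on knockout arrays, T-cell markers at 3.15 to 3.87 and 3.69 to 3.97, macrophage markers at 6.42 to 6.84 and 6.23 to 6.56, plasma-cell markers at 5.47 to 5.75 and 4.72 to 5.22, and granulocyte and mast cell markers at 1.80, 0.34 and -1.76 on control and -1.52 to -0.65 on knockout arrays, highest on control 1, with 3 of 4 NK-cell markers never detected. Of 5 T-cell markers tested, 4 were higher and 1 was lower. Cd3e was separate (0.26 to 0.51 on control and 0.75 to 1.16 on knockout arrays), Cd3d overlapped with a change of 1.41, and Cd4 and Lck overlapped. Cd3g was lower with overlap (0.61 to 1.05 on control and 0.13 to 0.78 on knockout arrays). Cd8a and Cd8b1 were well above background on 1 knockout array alone. All 7 macrophage markers tested were lower, by up to -1.08, and each overlapped. The macrophage sum was mostly Icam2 (6.15 to 6.45 on control and 5.99 to 6.16 on knockout arrays), with the other macrophage markers at 3.52 or lower. The plasma-cell sum was mostly Xbp1 (5.15 to 5.54 on control and 4.55 to 4.99 on knockout arrays). These sums mainly report 1 gene each. The part of these cell types in the results was not tested. In sorted bulk samples, fewer cells of a type and less RNA per cell cannot be told apart.

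On this scale, ribosomal protein signals were higher in knockout than in control B1a cells for 76 of 83 genes and lower for 7, while 39.8% of all genes tested were higher and 60.2% lower. Their median log2 change was 0.39 (1.31-fold), against -0.12 over all genes, but it was -0.02 with quantile normalization. The gap to all genes varied with the filter on dim probes and with the scaling. Without the filter the median of all genes was 0.40, against 0.41 for the 76 ribosomal proteins proper described below. With only probes well above background on all 6 arrays these medians were -0.12 and 0.41, and with quantile normalization they were -0.07 and -0.03. The part of the filter in the gap was not tested. All 3 knockout arrays lay above all 3 control arrays for 71 genes (14.7% of all genes did so), all 3 lay below for 2 genes (21.6% of all), and the groups overlapped for 10. No member reached an adjusted p under 0.05 in limma, where 7 genes of all did (0.0383%), and none passed the study's combined thresholds, at least 2-fold and an unadjusted p up to 0.05, which 3.53% of all genes passed. At the unadjusted p alone, which 25.1% of all genes reached, 48 members were higher (11.6% of all genes) and 1 was lower (13.6%). The number called at an adjusted p under 0.05 in limma rose to 46 higher (2.74% of all genes) with the trend and robust options of eBayes and to 44 higher and 1 lower with array weights (10.5% of all genes were called higher). These counts hold for the 75th percentile scale and, as described below, other high-signal genes were shifted to a similar degree on it and the direction of most members turned on several other scales.

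**Figure D1:**
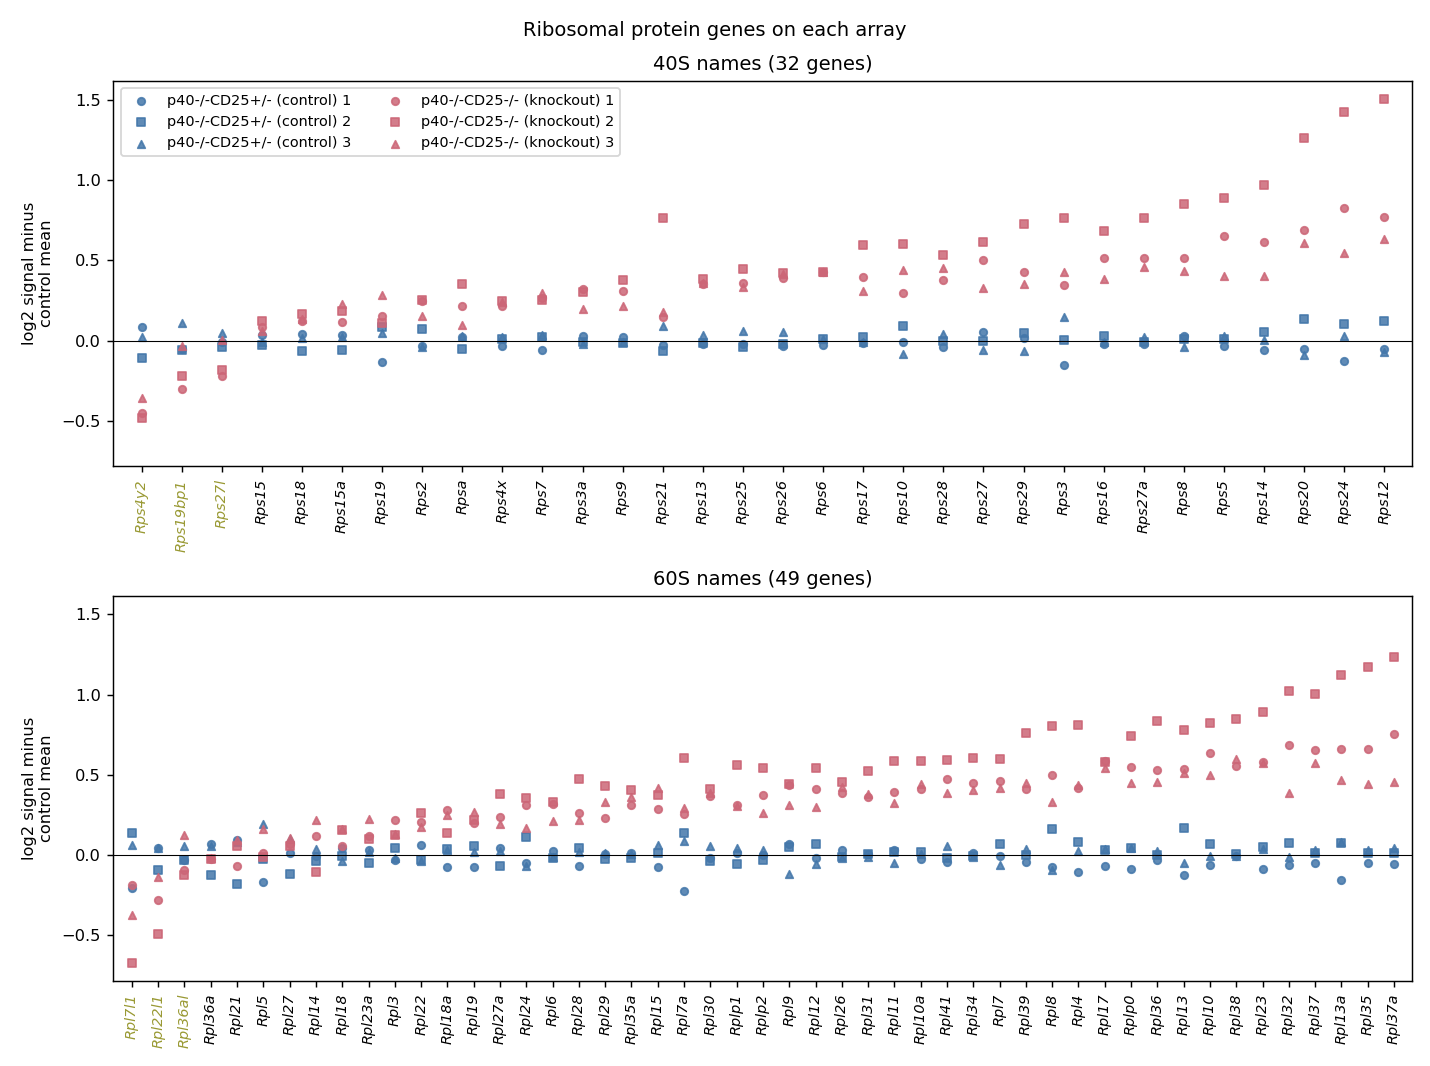
Log2 signal of each tested ribosomal protein gene on each of the 6 arrays, minus the mean of the 3 control arrays (vertical axis, log2 units), for Rps names (upper panel) and Rpl names (lower panel), in order of the change. Blue marks are control and red marks knockout arrays, with 1 shape per replicate number; olive names are paralogs and Rps19bp1, and Rpl39l, which was not well above background on all arrays, and 1 other member are left out. On this 75th percentile scale knockout arrays lie above the control arrays for most genes (with quantile normalization the median turns to -0.02), and knockout 2 is highest for the genes with the largest change.

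Both subunits had similar medians. Without the 6 paralogs tested and Rps19bp1, a protein that binds Rps19 and is not part of the ribosome, 76 genes for ribosomal proteins proper remained, of which 75 were higher with a median of 0.41. All 30 genes of the 40S subunit were higher and separated from the control arrays (median 0.42). Of 46 genes of the 60S subunit, 45 were higher and 41 separated (median 0.41), and the lone lower one was Rpl36a (-0.02). Of all genes 14.7% separated this way, as did 95.4% of other genes above a mean log2 level of 9 and 73.1% of those between 8 and 9. With quantile normalization both medians turned, to -0.03 over all Rps names and -0.01 over all Rpl names.

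The largest change belonged to Rps12, a 40S protein of the beak (probe at chr10:23505428-23505711, mm9). It was at 9.08, 9.26 and 9.07 on control and at 9.90, 10.64 and 9.77 on knockout arrays, a log2 change of 0.97 (SE 0.24, adjusted p = 0.114 in limma, n = 3 per group). The groups did not overlap, and knockout 2 was the highest. Rps24, a 40S protein mutated in Diamond-Blackfan anaemia (chr14:25315021-25315080, mm9), was at 8.24, 8.47 and 8.39 on control and at 9.19, 9.79 and 8.91 on knockout arrays (change 0.93, adjusted p = 0.115 in limma). Rps20, a protein of the 40S head (chr4:3761620-3761679, mm9), was at 8.93, 9.11 and 8.89 against 9.67, 10.24 and 9.59 (change 0.85, adjusted p = 0.109 in limma). For these 3 genes, as for the next 5, every knockout value exceeded every control value. These 8 genes were picked for the largest increases, which favours separation. It was found in 14.7% of all genes, in 95.4% of other genes above a level of 9 and in 73.1% of those between 8 and 9.

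The next 5 all encode 60S proteins. Rpl37a was at 9.59, 9.66 and 9.69 on control and 10.40, 10.88 and 10.10 on knockout arrays (change 0.82). Rpl35, which lies by the exit of the peptide tunnel, was at 9.03, 9.10 and 9.12 against 9.74, 10.26 and 9.53 (change 0.76). Rpl13a, which is also known to act outside the ribosome in the GAIT complex that silences inflammatory transcripts, was at 7.84, 8.07 and 8.08 against 8.66, 9.12 and 8.47 (change 0.75). In all of them knockout 2, the dimmest array, was highest. Rpl37 (change 0.75) and Rpl32 (change 0.70) followed. The adjusted p of these 5 lay between 0.104 and 0.122 in limma, so that none passed the threshold of 0.05. These 8 genes were higher in all 20 ways of processing that give 1 value per gene, Rpl37a by no more than 0.07 with the deposited values and Rpl13a by 0.22 with its probes averaged, as its second probe changed by -0.31.

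Genes of the ribosomal stalk, which recruits elongation factors, were all higher and separated on this scale. So did 14.7% of all genes and 95.4% of other genes above a level of 9, where the 3 stalk genes lie. Rplp0 was at 9.30, 9.44 and 9.44 on control and at 9.94, 10.14 and 9.84 on knockout arrays (change 0.58, SE 0.14, adjusted p = 0.114 in limma), and Rplp1 and Rplp2 differed by 0.39 each. With quantile normalization Rplp0 stayed at 0.06, whereas Rplp1 and Rplp2 turned to -0.19 and -0.15. Rps6, the substrate of S6 kinase, was at 8.55, 8.59 and 8.59 against 9.01 on each knockout array (change 0.43, adjusted p = 0.129 in limma). Of the partners that carry 5S ribosomal RNA and, when free, bind Mdm2, Rpl11 was at 9.31, 9.30 and 9.23 against 9.67, 9.86 and 9.60 (change 0.43), and Rpl5 was at 7.09, 7.23 and 7.45 against 7.27, 7.24 and 7.42 (change 0.06), so that Rpl11 separated and Rpl5 overlapped. Rps19, the first gene linked to Diamond-Blackfan anaemia, was at 8.21, 8.43 and 8.39 against 8.50, 8.45 and 8.62 (change 0.18), and Rpsa, the laminin receptor precursor, differed by 0.22. All 19 Diamond-Blackfan genes tested, which are among the 76, were higher (39.8% of all genes were) and 17 separated (14.7% of all). Of the 76 genes, 75 were higher and 71 separated. Of other genes between levels of 8 and 9, 90.2% were higher and 73.1% separated. The median of the 19 was 0.42 and turned to -0.04 with quantile normalization. Rpl11, Rps19 and Rpsa turned as well, to -0.06, -0.15 and -0.30.

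Fau and Gnb2l1 encode ribosomal proteins under names that the rule does not take in. Fau, in which a ubiquitin-like protein is fused to Rps30, was at 9.58, 9.54 and 9.60 on control and 10.37, 10.99 and 10.21 on knockout arrays (change 0.95, SE 0.22, adjusted p = 0.105 in limma). Gnb2l1, which encodes the scaffold Rack1, differed by 0.57. With quantile normalization these changes fell to 0.30 for Fau and 0.10 for Gnb2l1, and with the deposited values to 0.24 and 0.10. Rps27a, a ubiquitin fusion and a member by name, was at 9.42, 9.44 and 9.47 against 9.96, 10.21 and 9.90 (change 0.58).

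Paralogs are divergent copies of single ribosomal protein genes. Of 6 tested, 5 were lower, and 3 of 6 were lower under normexp with quantile normalization. Their mean levels were spread from -2.11 (Rpl39l) to 6.85 (Rpl22l1). In the bins of level over this range, the share of other genes that were lower lay between 43.0% and 80.8%. The median change of the paralogs was -0.22, and it ranged from -0.41 without knockout 3 and -0.40 under normexp with the 75th percentile to -0.081 over 8 paralogs without the filter on dim probes. Rps4y2, which RefSeq names Rps4l, was at 2.76, 2.57 and 2.70 on control and 2.22, 2.20 and 2.32 on knockout arrays (change -0.43, SE 0.13, adjusted p = 0.137 in limma), whereas Rps4x was at 7.96, 8.01 and 8.02 against 8.21, 8.24 and 8.24 (change 0.23). Both pairs of groups were separate, in opposite directions on this scale. Rpl22l1, the paralog that is held low by Rpl22 in other cells, was at 7.05, 6.91 and 7.05 against 6.72, 6.51 and 6.87 (change -0.30), and Rpl22 was at 8.72, 8.63 and 8.62 against 8.87, 8.92 and 8.83 (change 0.21). With quantile normalization Rpl22 and Rpl22l1 were both lower (-0.19 and -0.35), and Rps4x was near 0 (0.016) with Rps4y2 at -0.26. Rpl7l1 changed by -0.41 with overlap, against 0.49 for Rpl7, Rps27l, a target of p53, by -0.13 against 0.48 for Rps27, and Rpl36al by -0.03 against -0.02 for Rpl36a. With quantile normalization Rps27l was at 0.028 and Rps27 at -0.024. Rpl39l, not well above background on 1 knockout array, differed by 0.39 (SE 0.78) with overlap, against 0.54 for Rpl39. The difference between a paralog and its partner was not tested, and the paralog probes were dimmer than those of most members, with a median level of 3.83 over the 6 paralogs against 9.06 over the 76 genes.

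The change varied with signal level across all genes, without a single direction over the whole range. Above a mean log2 level of 9, 40 members had a median change of 0.48 and 131 other genes one of 0.44. Between 8 and 9 the medians were 0.29 over 29 members and 0.28 over 234 other genes, and between 6 and 8 they were 0.39 over 7 members and -0.02 over 696 other genes. Other genes between 2 and 6 had medians of -0.24, those between 0 and 2 one of -0.16, those between -2 and 0 one of 0.05 and those at -2 or lower one of 0.09. Above a level of 8, 68 of 69 members were higher (median 0.42) and so were 339 of 365 other genes (median 0.35). Among those 365, 21 with a description naming a ribosomal protein had a median of 0.48, and the other 344 one of 0.35. Of the 365, 73 had a symbol of the RefSeq style, and 59 of these were higher, with a median of 0.37 and a lower quartile of 0.03. Whether probes under other names read copies of ribosomal protein genes was not determined. The share of the change that comes with signal level was not tested.

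**Figure D2:**
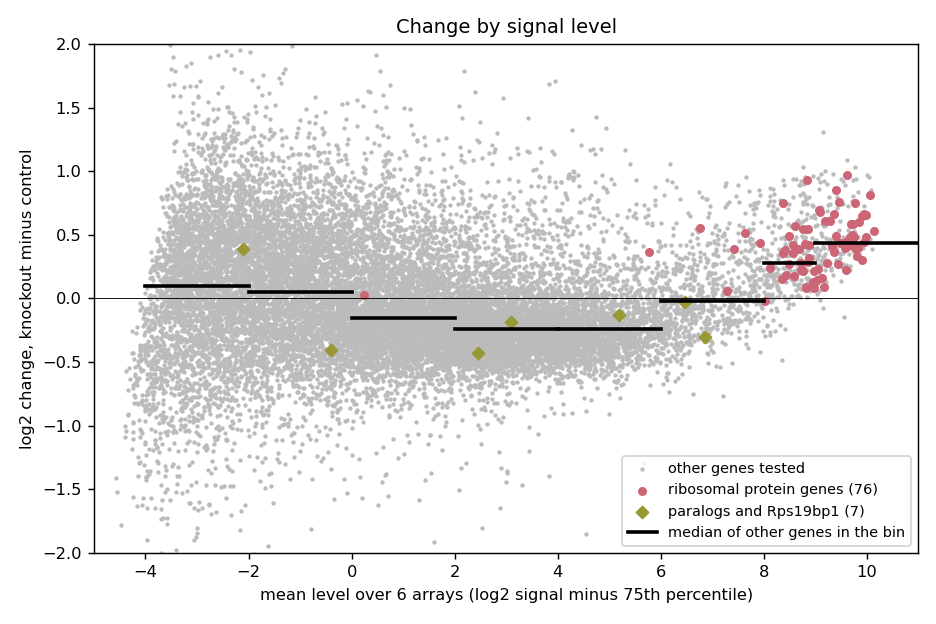
Log2 change (knockout minus control) against mean log2 level over the 6 arrays for all genes tested: grey points are other genes, red points 76 ribosomal protein genes, olive diamonds 6 paralogs and Rps19bp1, and black bars the median of other genes in each bin of level. Changes beyond 2 log2 units in either direction (53 genes) are outside the axis. Ribosomal protein genes sit at the bright end, where the medians of other genes are 0.28 and 0.44.

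The probes of a gene differed in the same way. Of 172 tested probes for the 76 genes, 51 of 51 were higher above a level of 9, 65 of 68 between 8 and 9, 22 of 30 between 6 and 8, 3 of 9 between 4 and 6, 1 of 6 between 2 and 4, and 1 of 8 at 2 or lower. Over all 54 genes with more than 1 tested probe, the brightest probe had a median change of 0.41 and the dimmest one of 0.07, and the brightest lay above the dimmest in 39. For the 22 of these with probes more than 2 log2 units apart in level, the medians were 0.43 and -0.12, and the brightest lay above the dimmest in 20. In 30 of 54 genes with more than 1 probe, all probes were higher. Both Rps12 probes were higher (0.97 and 0.99), as were both Rpl37a probes (0.82 and 0.85). Rpsa had 4 probes with changes from -0.46 to 0.86, and Rps6 had probes at 0.43, -0.08 and -0.47. Ribosomal protein genes have many near-identical processed copies in the genome, and which copies a probe reads was not determined, so single values are uncertain where probes differ.

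Probes of Rps24 designed on different transcript variants had different values, and a difference between the variants was not tested. Its brightest probe and another over nearly the same bases, in the 3′ part of the gene, changed by 0.93 and 1.02. A probe designed on transcript variant 2 (chr14:25311190-25312666, mm9) was at 6.26, 6.46 and 6.34 on control and 6.48, 7.26 and 6.76 on knockout arrays, a change of 0.48. The probe designed on variant 1 (chr14:25312695-25315015, mm9) was at 5.03, 4.81 and 4.93 against 4.66, 4.49 and 4.73, a change of -0.30 with adjusted p = 0.248 in limma, so that all its knockout values were below the control values. This probe was also the dimmest of the 4, and the part of signal level was not tested.

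**Figure D3:**
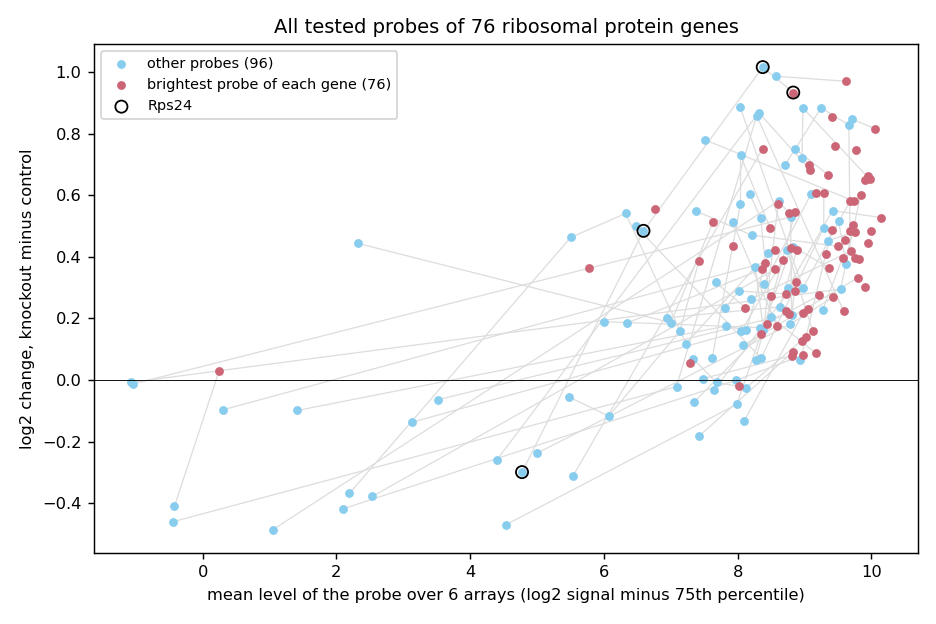
Log2 change (knockout minus control) against mean log2 level for each of 172 tested probes of 76 ribosomal protein genes, with grey lines joining the probes of a gene, red points for its brightest probe and blue points for the others, and black rings on the 4 Rps24 probes. Nearly all probes above a level of 8 are higher in knockout, and most probes under a level of 6 are lower.

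The shift was found on each knockout array. Over the 76 genes, the median deviation from the control mean was 0.37, 0.54 and 0.34 on knockout 1, 2 and 3, and -0.02, 0.01 and 0.02 on the control arrays. Knockout 2, the array with the lowest 75th percentile, was the highest of the 3 in 58 of 76 genes. The members took 11.6%, 12.0% and 11.2% of the summed signal of genes tested on knockout arrays, and 9.83%, 9.95% and 9.62% on control arrays. The order of genes was alike, as deviations from the control mean correlated across the 76 genes with Pearson r of 0.91 between knockout 1 and 2, 0.85 between 1 and 3 and 0.80 between 2 and 3, a description that shares the control mean and the signal levels. The change correlated with mean level at Spearman rho 0.42 and with the GC content of the probe at -0.12 across these genes.

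The family's direction depended on how arrays were made comparable. With quantile normalization 35 of the 76 genes were higher and the median was -0.03, and with the deposited log2 values, whose columns hold identical sorted values, 33 were higher and the median was -0.05. Cyclic loess gave 52 higher and a median of 0.07, normexp background correction with the 75th percentile 50 and 0.08, and normexp with quantile normalization 31 and -0.04. Scaling on the median of bright probes gave 76 and 0.51. Other genes above a level of 8 had medians of -0.05, -0.05, 0.05, 0.03, -0.05 and 0.45 in the same order, so they moved with the family. Of the 83 members, 28 were higher in all 20 ways of processing, among them Rps12 (range 0.38 to 1.14) and Rps24 (range 0.51 to 1.13), 3 were lower in all 20 (Rps4y2, Rpl7l1 and Rpl22l1), and 52 turned.

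**Figure D4:**
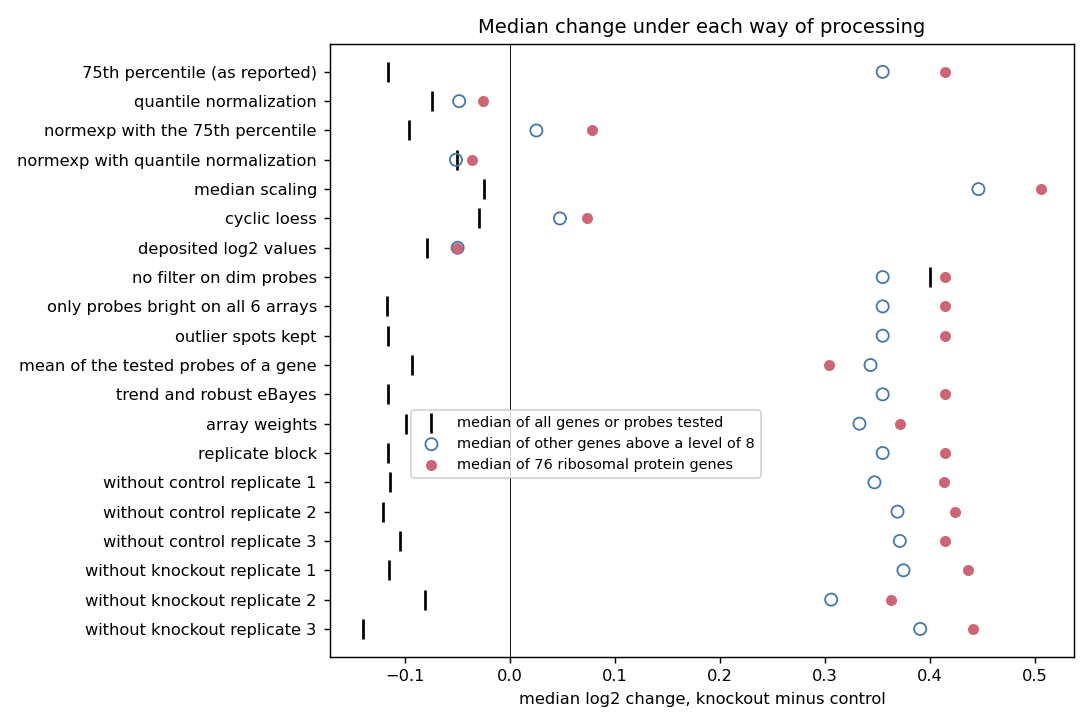
Median log2 change (knockout minus control, horizontal axis) under each way of processing, for 76 ribosomal protein genes (red points), other genes above a level of 8 (open blue circles) and all genes tested (black ticks). Under the 75th percentile the family median is 0.41 and that of the other bright genes 0.35, and under quantile normalization they are -0.03 and -0.05.

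The order within the family varied less. The rank of the 76 changes correlated with that under the 75th percentile at Spearman rho 0.77 for quantile normalization, 0.87 for cyclic loess and 0.71 for the deposited values. When each gene was expressed relative to the median of the 76 genes on the same array, 36 of them lay above the family and 21 below it in all 12 ways of processing compared, a choice made after seeing the data. Rps12 stood above by 0.62 (0.39 to 0.75 across the 12), Rps24 by 0.58 (0.38 to 0.74) and Rps20 by 0.50 (0.34 to 0.59). Rpl14 and Rpl27 lay below, with relative changes of -0.27 each. On this scale no member was called higher at an adjusted p under 0.05 in limma (1.44% of all genes were) and 4 were called lower (31% of all genes were), namely Rps4y2, Rpl7l1, Rpl22l1 and Rps19bp1, none of them among the 76. These calls were lost in most other fits. No member was called relative to the family with quantile normalization, normexp with quantile normalization, cyclic loess or the deposited values, nor without control 1, control 2, control 3 or knockout 1, where 0.0163% to 0.464% of all genes were called. Under normexp with the 75th percentile 2 were called lower (17% of all genes were called in either direction), without knockout 2 it was 1 (15.1%), and without knockout 3 there were 3 higher and 5 lower (38.8%).

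Lists of mitochondrial ribosomal proteins, ribosome assembly, RNA polymerase I and mTOR and Myc control had medians below 0 on the 75th percentile scale, on which 60.2% of all genes and 80.8% of other genes between levels of 2 and 4 were lower. Of 75 mitochondrial ribosomal protein genes 73 were lower, with a median of -0.26, and 41 had all knockout arrays below all control arrays (21.6% of all genes did). Mrps10 was highest in this list (change 0.38) and Mrpl37 lowest (change -0.60). Ribosome assembly factors, which process ribosomal RNA and build the subunits, were lower in 39 of 44 genes (median -0.22), from Dkc1, the pseudouridine synthase (change -0.54), to Noc3l (change 0.50). Genes of RNA polymerase I were lower in 11 of 14 (median -0.14), with Polr1c at -0.35 and Taf1b at 0.34. Genes of mTOR and Myc control were lower in 15 of 19 (median -0.27), with Rheb, the activator of mTORC1, at -0.61 and Eif4ebp2 at 0.29. The counts for RNA polymerase I and for mTOR and Myc control lay near the share of other genes at that level. None reached an adjusted p under 0.05 in limma. The median level of these lists lay between 2.44 and 3.19, where other genes had a median change of -0.24. The median of RNA polymerase I genes moved to -0.055 without control 3, -0.091 without knockout 1 and -0.23 without knockout 3, and to 0.0048 under cyclic loess. The other 3 medians stayed below 0 under all ways of processing run, from -0.52 to -0.077 for mitochondrial ribosomal proteins, -0.41 to -0.045 for assembly factors and -0.51 to -0.090 for mTOR and Myc control, with 20 of 75 mitochondrial ribosomal protein genes higher under cyclic loess and 13 of 75 with the deposited values.

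Of 20 non-ribosomal transcripts with a known 5′TOP motif, 6 were higher and 14 lower, near the shares of all genes (39.8% and 60.2%). Their median was -0.14, which moved to -0.045 without knockout 2, to -0.051 with scaling on the median of bright probes and to -0.43 under normexp with the 75th percentile. Eef1a1, the elongation factor that brings aminoacyl-tRNA to the ribosome, was at 7.32, 7.48 and 7.48 on control and 8.04, 8.53 and 7.97 on knockout arrays (change 0.75, adjusted p = 0.113 in limma), and Tpt1 differed by 0.39. Both were separate between genotypes on this scale, but Tpt1 turned to -0.21 with quantile normalization and to -0.40 with the deposited values. Eif3h, an initiation factor subunit, was lowest in this list (change -0.36). Of genes in the pathway that senses free ribosomal proteins, Cdkn1a (change 0.29), Trp53 (change 0.26) and Mdm2 (change -0.20) overlapped between genotypes. Genes named as ribosomal protein pseudogenes were higher in 13 of 14 (39.8% of all genes were), but in 9 of 14 without control 1, with quantile normalization and with the deposited values, and in 7 of 14 under normexp with the 75th percentile. Their median of 0.15 moved to 0.097 without knockout 3 and turned to -0.08 under normexp with the 75th percentile.

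**Figure D5:**
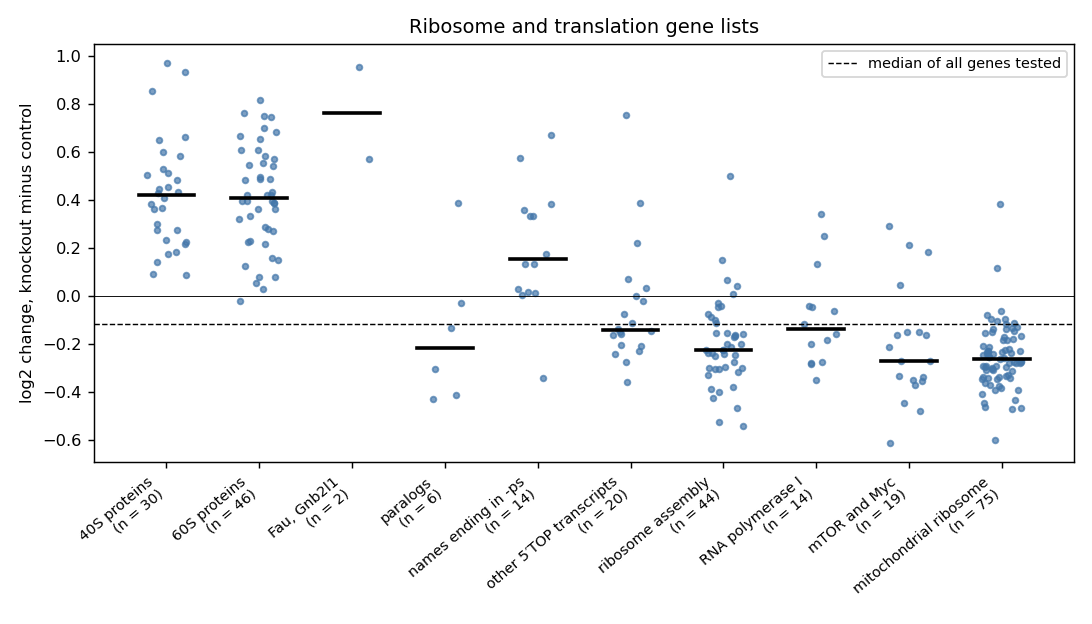
Log2 change (knockout minus control, vertical axis) of each tested gene in lists of the ribosome and translation, with black bars for the median of a list and a dashed line for the median of all genes tested (-0.12). On this 75th percentile scale, proteins of both cytoplasmic subunits have medians of 0.42 and 0.41, which turn below 0 with quantile normalization, and mitochondrial ribosomal proteins one of -0.26.

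The 5′ ends of the genes are shown because a pyrimidine tract at the start is what 5′TOP transcripts have in common. RefSeq promoters (GRCm38.p6) matched 61 of 83 members. The words CTTTC and CTTTT were searched in the 20 bases before and 30 bases from the annotated start. Of the 76 genes, 55 had a promoter, and 23 of those (41.8%) held a word on the sense strand and 6 (10.9%) on the other strand. Over all promoters of the table the shares were 10.9% and 10.6%, and for mitochondrial ribosomal proteins 7.58% held it on the sense strand. The word CCGGAAG, within the ETS-type motif, was in 40% of the 55 promoters on either strand over 300 bases, in 33.3% of those of mitochondrial ribosomal proteins and in 9.12% of all promoters. Each line gives the 10 bases before and the 20 bases from the annotated start, with CTTTC or CTTTT in capitals, for members with large changes, for Fau, Rps6 and Rplp2 and for Rpl36a and paralogs.
Rps12 (chr10:23787190-23787219, minus strand): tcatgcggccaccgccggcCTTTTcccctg
Rps24 (chr14:24490668-24490697, plus strand): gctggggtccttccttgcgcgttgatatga
Rpl37a (chr1:72711250-72711279, plus strand): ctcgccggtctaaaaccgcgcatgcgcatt
Rpl35 (chr2:39005112-39005141, minus strand): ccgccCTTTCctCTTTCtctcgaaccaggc
Rpl13a (chr7:45128726-45128755, minus strand): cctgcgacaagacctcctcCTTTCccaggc
Rpl37 (chr15:5116603-5116632, plus strand): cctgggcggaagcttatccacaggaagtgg
Fau (chr19:6057937-6057966, plus strand): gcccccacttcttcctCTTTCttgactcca
Rps6 (chr4:86857348-86857377, minus strand): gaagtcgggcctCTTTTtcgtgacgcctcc
Rplp2 (chr7:141447641-141447670, plus strand): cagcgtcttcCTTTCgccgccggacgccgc
Rpl36a (chrX:134585644-134585673, plus strand): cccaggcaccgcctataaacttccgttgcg
Rpl36al (chr12:69184048-69184077, minus strand): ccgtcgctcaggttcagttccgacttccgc
Rps27l (chr9:66946076-66946105, plus strand): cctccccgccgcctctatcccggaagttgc
Rpl22l1 (chr3:28805498-28805527, plus strand): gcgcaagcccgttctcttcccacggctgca
Rpl7l1 (chr17:46782637-46782666, minus strand): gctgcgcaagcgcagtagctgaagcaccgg

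Among members with a large change, Rps12, Rpl35 and Rpl13a held a word near the start and Rps24, Rpl37a and Rpl37 did not. The 5 shown for Rpl36a and the paralogs held none, while the promoter of Rpl39l, which is not shown, held one, as the lone case among 6 promoters of members outside the 76 (16.7%). Over the 55 genes, the median change was 0.41 for 23 with a word and 0.38 for 32 without. An annotated start can lie several bases from the one used in B1a cells, and a missing word says only that its letters are not in the window.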

How the data were processed

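Total RNA of sorted PC B1a cells from 3 p40-/-CD25-/- and 3 p40-/-CD25+/- samples was labelled with Cy3 and hybridized to Agilent mouse arrays. The authors deposited spot intensities from Agilent Feature Extraction 10.7.1.1 (named in the submitters' processing notes), background subtracted and detrended but not scaled between arrays, together with log2 values per probe, sorted columns of which are identical. The scaling behind those log2 values is not given in the sources used here. From the intensities, log2 of the processed signal minus the 75th percentile of the array's non-control spots was computed, outlier spots were dropped and replicate spots averaged. Probes entered the fit if well above background on 3 of 3 arrays in either genotype, with 2 or more measured values in both, which left 24757 of 55681 probes, and the brightest probe stood for a gene. Differences between genotypes were fitted by lmFit and eBayes (limma 3.58.1, R 4.3.3), with p-values adjusted by the Benjamini-Hochberg method over 18256 genes. The fit was tested on simulated data. Array coordinates are mm9. RefSeq promoters and names (GRCm38.p6) were matched by accession or symbol, 80 of 83 members by accession. The precision is limited by the number of arrays. Nothing in the labels ties replicate numbers to mice, each sample pooled several, and whether samples of a genotype came from separate pools is not given in the sources used here, so p-values measure the spread between these samples, which may be technical. Alternatives were other scalings, background corrections, filters, probe choices, eBayes options, array weights, a replicate block and leaving out each array. The normexp correction used an offset of 50. Named genes are the 8 highest and the 8 lowest changes among members bright on all arrays, paralogs and their partners, Rplp0, Rplp1, Rplp2, Rpl5, Rpl11, Rps6, Rps19, Rpsa, Fau and Gnb2l1, the deleted genes, and the extremes of each list. Rps27a, Tpt1, Trp53, Rpl14 and Rpl27 and single probes were added for their values. Some genes of the rule and lists are not reported here. Members and lists were chosen with earlier results of these data known.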

Additional observations from a re-analysis of the deposited data

How the results depend on the processing

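The family's median moved with the scaling, the background correction and the choice of probes, and the cause was not tested. Over all members, the Rps names and the Rpl names it turned to -0.024, -0.026 and -0.0089 with quantile normalization, to -0.048, -0.053 and -0.016 with the deposited log2 values, and to -0.026, -0.047 and -0.018 under normexp with quantile normalization. It fell to 0.071, 0.054 and 0.075 under normexp with the 75th percentile and to 0.058, 0.053 and 0.068 under cyclic loess, and was 0.48, 0.47 and 0.49 with scaling on the median of bright probes. It was 0.34 over all members with array weights, 0.32 over their probes taken singly, and 0.29 over all members and 0.27 over the Rpl names with probes of a gene averaged. Without the paralogs and Rps19bp1, a choice added after seeing the data, it was 0.41. Without each array in turn, the median over the 76 genes lay between 0.36 and 0.44.

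Members called at an adjusted p under 0.05 in limma numbered 46 with the trend and robust options, 45 with array weights and 8 under normexp with the 75th percentile, and 0 in the other fits. Members past 2-fold with an unadjusted p of 0.05 or less numbered 2 with scaling on the median of bright probes, 1 without the filter on dim probes, 1 with each probe on its own, and 0 to 2 without each array in turn, where knockout 1, knockout 3 and control 2 mattered. Over all genes, those called at the adjusted p, 7 in the reported fit, numbered 20 with quantile normalization, 22 with the deposited values, 22 under normexp with quantile normalization, 6447 under normexp with the 75th percentile, 0 under cyclic loess, 2 without the filter, 27 with only probes bright on all arrays, 11 with the mean of probes, 20 with each probe on its own, 754 with the trend and robust options, 4479 with array weights, and 2 to 112 without each array in turn. Those past 2-fold, 644 in the reported fit, numbered 757 with scaling on the median of bright probes, 900 of 24757 probes with each probe on its own, 376 under cyclic loess, 162 and 190 under normexp with quantile and with the 75th percentile, 10640 without the filter, where the median change of all genes was 0.40, and 602 to 1149 without each array in turn.

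Among the genes named here, with quantile normalization, where 41 of all 76 genes were not higher, changes turned for Rps19bp1 (0.019), Rps27l (0.028), Rplp1 (-0.19), Rplp2 (-0.15), Rpl5 (-0.035), Rpl11 (-0.058), Rps19 (-0.15), Rpsa (-0.30), Rpl3 (-0.30), Rpl14 (-0.37), Rpl27 (-0.34), Tpt1 (-0.21), Rpl22 (-0.19), Rps27 (-0.024) and Rps3a (-0.20). With the deposited log2 values, changes turned for Rps19bp1 (0.0069), Rps27l (0.036), Rplp1 (-0.23), Rplp2 (-0.17), Rpl5 (-0.053), Rpl11 (-0.064), Rps19 (-0.15), Rpsa (-0.32), Rpl3 (-0.30), Rpl10 (-0.014), Rpl14 (-0.36), Rpl27 (-0.36), Tpt1 (-0.40), Rpl22 (-0.20), Rps27 (-0.048) and Rps3a (-0.20). Under normexp with quantile normalization, changes turned for Rps19bp1 (0.038), Rps27l (0.038), Rpl36al (0.0014), Rplp1 (-0.15), Rplp2 (-0.13), Rpl5 (-0.058), Rpl11 (-0.051), Rps19 (-0.13), Rpsa (-0.34), Rpl3 (-0.31), Rpl10 (-0.011), Rpl14 (-0.35), Rpl27 (-0.32), Tpt1 (-0.25), Rpl22 (-0.23), Rps27 (-0.075) and Rps3a (-0.24). Under normexp with the 75th percentile, changes turned for Rpl21 (-0.028), Rpl5 (-0.29), Rps19 (-0.14), Rpsa (-0.14), Il12b (0.35), Rpl3 (-0.17), Rpl14 (-0.22), Rpl27 (-0.25), Rpl22 (-0.16), Rps4x (-0.090) and Rps3a (-0.093). Under cyclic loess, changes turned for Rps19bp1 (0.042), Rps27l (0.014), Rplp1 (-0.029), Rplp2 (-0.019), Rpl5 (-0.049), Rps19 (-0.059), Rpsa (-0.17), Rpl3 (-0.17), Rpl14 (-0.23), Rpl27 (-0.21), Tpt1 (-0.074), Rpl22 (-0.068), Rps3a (-0.066) and Mdm2 (0.027). With scaling on the median of bright probes, changes turned for Rpl36al (0.062), Rpl36a (0.071) and Il12b (0.070). With probes of a gene averaged, changes turned for Rpl36a (0.014), Rpl21 (-0.19), Rpl14 (-0.11), Rps6 (-0.039) and Cdkn1a (-0.096). With array weights, changes turned for Rpl21 (-0.064), Rpl5 (-0.029) and Cdkn1a (-0.070). Without each array in turn, ranges that crossed 0 were -0.16 to 0.20 for Il12b, -0.061 to 0.075 for Rpl21, -0.083 to 0.015 for Rpl36a, -0.11 to 0.017 for Rpl36al, -0.55 to 1.01 for Rpl39l, where knockout 3 decided the sign, and -0.029 to 0.15 for Rpl5. Without knockout 3, Il2ra passed the adjusted threshold in limma at -1.82.

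Deviations of arrays with the same replicate number correlated at 0.19, 0.056 and 0.094, and those of arrays with different numbers at -0.19 to 0.067. With 3 arrays per group these values cannot decide whether the replicate numbers pair the samples. With the replicate number as a block, 4 genes of all and 0 members passed the adjusted p in limma. With 3 arrays per group the smallest p of an exact permutation test is 0.1, so single genes rest on the model across genes, and p-values measure the spread between pooled samples. Dim probes limit some of the paralogs, above all Rpl39l, the lone member tested that was not well above background on all arrays. The other 82 of 83 members, 5 of the 6 paralogs among them, were well above background on all arrays.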
